A study of Homo sapiens with 12 samples.

Results

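IGLL1, SPINT2 and C1QTNF4 were followed across NB4 and Kasumi-1 acute myeloid leukemia (AML) cells as 3 of the 20003 genes measured by mRNA sequencing. They were chosen by name, because their expression in FPKM, fragments scaled by exon length and by the mapped total, was lower with OGP46 than with control in both lines, and because they are associated with immature blood cells. The OGP46 values of these 3 genes are therefore a description and carry no test. The level of one line against the other was not the ground for the choice, and this line difference was tested. The choice used the same samples of both lines, so the test is not independent of it.

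IGLL1 encodes lambda 5, which joins a VPREB protein to form the surrogate light chain of the pre-B cell receptor on early B-lymphoid cells. SPINT2 encodes a membrane-bound Kunitz-type inhibitor of serine proteases such as matriptase and the activators of hepatocyte growth factor (HGF). C1QTNF4 encodes a secreted protein with C1q-like domains from the family that includes adiponectin.

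The study incubated cells with 1 μM OGP46 for 48 h and compared them with cells given DMSO for the same time. A figure legend of the study gives a longer incubation for the sequencing. NB4 is an established line from acute promyelocytic leukemia that carries the PML-RARA fusion, and Kasumi-1 is an established line from AML with the t(8;21) translocation and its RUNX1-RUNX1T1 (AML1-ETO) fusion. Each line had 3 control and 3 OGP46 samples, 12 in all, and each line stands for its leukemia type by itself. The labels do not say whether the 3 samples of a group came from separate cultures, so p-values measure the spread between these samples, which may be technical. In bulk RNA such as this, fewer cells with a transcript and less transcript per cell cannot be told apart.

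The summed FPKM ran from 248207 to 310262 per sample, and 9339 to 9746 genes reached 1 FPKM. The number of reads behind each value is unknown. Of the markers fixed for Kasumi-1, 5 of 5 (RUNX1T1, POU4F1, TRH, CD34 and KIT) were higher in Kasumi-1 controls than in NB4 controls. Of the markers fixed for NB4, STAB1 and MS4A3 were higher in NB4, but HGF and CTSG were higher in Kasumi-1. Of 11 markers of other blood cells, only CD3D (16.7 FPKM) and NKG7 (44.2 FPKM) were above 1 FPKM on average in NB4 controls, while CD3E was at 0.0203 FPKM and MS4A1 and PF4 were listed at 0 in every NB4 and Kasumi-1 sample.

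Some libraries held a low level of genes that mark the other line, and this bears on the low values in NB4. The signal was read from 18 genes with at least 20 FPKM in Kasumi-1 and, at the median of the NB4 samples, under 1% of that level. SPINT2 and C1QTNF4 are among the 18. In each NB4 sample the median of these genes, relative to their mean in Kasumi-1 controls, was 0.0770%, 0.261% and 1.10% in controls 1, 2 and 3. It was 0.0445%, 0.0474% and 0.0768% in OGP46 samples 1, 2 and 3. NB4 control 3 thus stood apart from the other NB4 samples. In the reverse direction, 21 genes that mark NB4 stood at a median of 1.61% in Kasumi-1 control 2 and between 0.187% and 0.258% in the other 5 Kasumi-1 samples. Subtraction of that signal left IGLL1 in Kasumi-1 control 2 at 7.01 FPKM.

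The 3 genes lie on separate chromosomes of GRCh38 in the GENCODE release 29 annotation. IGLL1 spans chr22:23573125-23580308 on the minus strand, with 3 exons and a coding length of 639 bases in its longest coding transcript. SPINT2 spans chr19:38244035-38292614 on the plus strand, with 7 exons and 756 coding bases. C1QTNF4 spans chr11:47589664-47594659 on the minus strand, with 2 exons and 987 coding bases. IGLL1 shares transcript sequence with the immunoglobulin lambda constant genes, so its value depends on how reads were divided between copies. Of the 947 different stretches of 50 bases in its transcripts, 78 (8.24%) also occur in transcripts of other genes, among them IGLL5 and IGLC1. The longest stretch identical between IGLL1 and IGLL5 transcripts has 67 bases and is shown because fragments inside it cannot be assigned to either gene, with no capitals since every base is shared:

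IGLL1 and IGLL5: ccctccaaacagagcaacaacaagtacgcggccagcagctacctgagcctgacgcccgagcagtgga

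For SPINT2 the shared stretches were 217 of 5426 (4.0%), and C1QTNF4 had 0 of 1644. PPP1R14A lies inside the span of SPINT2 on the opposite strand, and an antisense gene overlaps the 3′ end of IGLL1. AC011479.1, a protein-coding gene without an FPKM value, overlaps the 3′ end of SPINT2 on the same strand. The libraries were strand-specific, but strand use in the quantification is not given in the sources used here, so reads of overlapping genes cannot be told apart.

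Of the 3 genes, the RefSeq promoter table (GRCh38.p14) held IGLL1. The 250 bases before its RefSeq start, chr22:23580291-23580540 on the minus strand, are shown because Kasumi-1 carries a fusion of the RUNX1 transcription factor and IGLL1 differed between the lines. The capitals mark the RUNX core TGTGGT, read on either strand:

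IGLL1 promoter: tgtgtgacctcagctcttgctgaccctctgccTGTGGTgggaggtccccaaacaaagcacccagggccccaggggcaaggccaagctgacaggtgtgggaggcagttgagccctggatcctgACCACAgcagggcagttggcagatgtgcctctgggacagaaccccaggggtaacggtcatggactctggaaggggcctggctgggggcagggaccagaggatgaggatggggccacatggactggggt

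The 2 matches start at positions -218 and -128 from the gene start, and 11.0% of 35116 promoters of this length hold at least 1. The same window held 2 matches to the MYB letters CAACTG, which 9.0% of promoters hold, and 1 to the AGGTCA site of nuclear receptors, which 12.1% hold. It held 1 match to the E-box CAGGTG (17.5% of promoters) and 0 to a further E-box, CAGCTG. It held 0 matches to the ETS letters GGAAGT (19.5% of promoters). It also held 0 to the GATA letters AGATAA (9.17%). The C/EBP letters TTGCNNAA (9.05%) and the NRF2 letters TGACNNNGC (10.9%) had 0 matches too. Both strands were searched, and none of the matches overlapped. A match describes letters in this window only.

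All 3 genes were far higher in Kasumi-1 than in NB4. This line difference was measured separately in the controls and in the OGP46 samples, by limma on log2(FPKM + 0.1) with Benjamini-Hochberg adjustment over all genes tested, called at an adjusted p under 0.05 and a log2 difference of at least 0.58. All 3 were called higher in Kasumi-1 in both comparisons. Among all genes, 29.7% of 12302 were called higher in Kasumi-1 controls and 22.7% lower, and 26.0% of 12307 were called higher among the OGP46 samples and 26.8% lower.

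IGLL1 stood at 0.240, 0.335 and 0.295 FPKM in NB4 controls 1, 2 and 3, and at 9.54, 7.01 and 6.02 FPKM in Kasumi-1 controls 1, 2 and 3. Every Kasumi-1 control lay above every NB4 control. The mean was 0.290 ± 0.0478 FPKM (SD, n = 3) in NB4 and 7.52 ± 1.81 FPKM (SD, n = 3) in Kasumi-1, a 25.9-fold ratio, with a log2 difference of 4.27 (SE 0.19, limma adjusted p = 1.3e-07). In Kasumi-1 controls IGLL1 was a gene of middle rank, at position 4921 of 20003 by FPKM.

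SPINT2 stood at 103, 101 and 89.3 FPKM in Kasumi-1 controls 1, 2 and 3. In NB4 controls it stood at 0.0942, 0.337 and 1.09 FPKM. The 3 Kasumi-1 values lay close together, while the NB4 values differed among themselves in the same order as the marking genes of Kasumi-1 did in those libraries. The means were 97.6 ± 7.24 FPKM in Kasumi-1 and 0.506 ± 0.517 FPKM in NB4 (SD, n = 3 each), a 193-fold ratio and a log2 difference of 7.71 (SE 0.52, limma adjusted p = 1.6e-06). SPINT2 ranked 389 of 20003 genes by level in Kasumi-1 controls, and 9 of 12302 by line difference.

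C1QTNF4 had the highest level of the 3, with 172, 194 and 114 FPKM in Kasumi-1 controls 1, 2 and 3 and 0.287, 0.180 and 1.24 FPKM in NB4 controls. Its line difference ranked 2 of 12302. The means were 159.7 ± 41.4 FPKM in Kasumi-1 and 0.570 ± 0.585 FPKM in NB4 (SD, n = 3 each), a 280.0-fold ratio and a log2 difference of 8.21 (SE 0.50, limma adjusted p = 8.6e-07). FPKM is a level per length, and on that scale C1QTNF4 lay above SPINT2 in each Kasumi-1 control and SPINT2 above IGLL1.

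**Figure D1:**
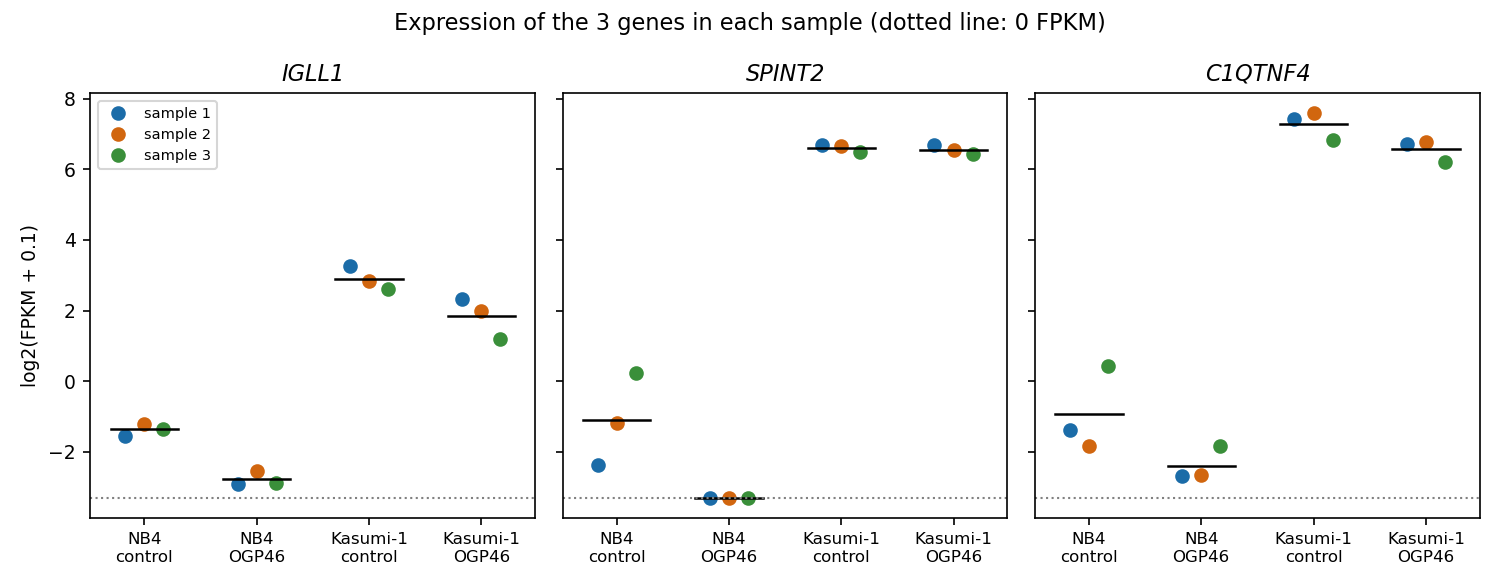
The y axis shows log2(FPKM + 0.1) of IGLL1, SPINT2 and C1QTNF4 in each of the 12 samples, with points for samples numbered 1 to 3, a black line for the mean of 3 and a dotted line for 0 FPKM. All 6 Kasumi-1 samples lie above all 6 NB4 samples for each gene, and SPINT2 lies on the dotted line in the 3 NB4 samples with OGP46.

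The line difference was also present with OGP46. IGLL1 averaged 3.67 FPKM in Kasumi-1 and 0.0468 FPKM in NB4, a log2 difference of 4.61 (SE 0.29, limma adjusted p = 1.8e-06). C1QTNF4 averaged 95.8 and 0.0985 FPKM, a log2 difference of 8.95 (SE 0.25, limma adjusted p = 2.3e-08). SPINT2 averaged 93.5 FPKM in Kasumi-1 and was listed at 0 in all 3 NB4 samples (limma adjusted p = 8.3e-10), so no ratio is given. After subtraction of the estimated signal of the other line, the log2 difference of the controls was 4.41 for IGLL1, 9.51 for SPINT2 and 10.14 for C1QTNF4. Subtraction takes a share of the Kasumi-1 control mean from each NB4 sample, so it could hardly do other than widen these differences. SPINT2 and C1QTNF4 are among the genes that set that share. Subtraction left C1QTNF4 at 0.164, 0 and 0 FPKM in NB4 controls 1, 2 and 3, so the size of 10.14 rests on the added 0.1.

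In Kasumi-1, IGLL1 and C1QTNF4 were lower with OGP46 in each sample, and SPINT2 hardly differed. IGLL1 stood at 4.95, 3.89 and 2.17 FPKM in OGP46 samples 1, 2 and 3, against the control values of 9.54, 7.01 and 6.02 FPKM. The highest OGP46 value lay below the lowest control. The mean with OGP46 was 3.67 ± 1.40 FPKM (SD, n = 3), which is 48.8% of the control mean, and the log2 difference was -1.07 (SE 0.26). Control and OGP46 samples that share a number varied together within each line, and pair by pair the OGP46 value was 51.9%, 55.4% and 36.0% of its control. With the pair number as a block the SE was 0.11.

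C1QTNF4 stood at 105, 109 and 73.3 FPKM in Kasumi-1 with OGP46. These values also lay below all 3 controls, whose lowest was 114 FPKM in control 3. The mean with OGP46 was 95.8 ± 19.6 FPKM (SD, n = 3), or 60.0% of control, with a log2 difference of -0.72 (SE 0.20, and 0.06 with the block). Pair by pair the values were 60.9%, 56.5% and 64.5% of control. The sample with the lowest control, number 3, also had the lowest OGP46 value.

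SPINT2 stood at 102, 93.0 and 85.4 FPKM in Kasumi-1 with OGP46. These values overlapped the controls of 89.3 to 103 FPKM. The mean of 93.5 ± 8.32 FPKM (SD, n = 3) was 95.8% of control, and the log2 difference was -0.06 (SE 0.08). Each pair was lower with OGP46, at 99.3%, 92.4% and 95.7% of control, and the difference was smaller than the SD of either group. By log2 difference, IGLL1 ranked 11, C1QTNF4 64 and SPINT2 2838 from the lowest of 11835 genes in Kasumi-1, where the median over all genes was 0.05. The choice of SPINT2 as a gene lower in both lines thus rested, in Kasumi-1, on a difference within the replicate spread.

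**Figure D2:**
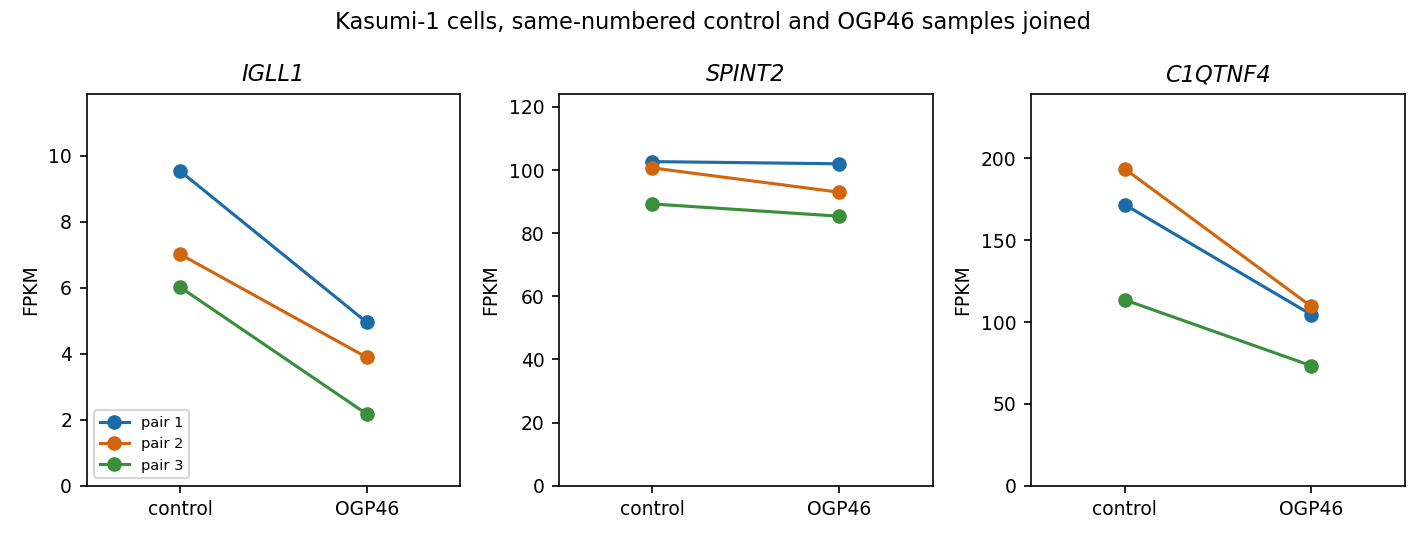
The y axis shows FPKM on a linear scale from 0 for each gene in Kasumi-1, with control and OGP46 samples of the same number joined. The lines of IGLL1 and C1QTNF4 slope down in 3 of 3 pairs with no overlap between the groups, and those of SPINT2 are nearly level.

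In NB4 all 3 genes were low, and their OGP46 differences moved to different degrees with the Kasumi-1 signal of the libraries. IGLL1 stood at 0.0340, 0.0704 and 0.0360 FPKM in OGP46 samples 1, 2 and 3, all below the lowest control of 0.240 FPKM. The mean of 0.0468 ± 0.0205 FPKM (SD, n = 3) was 16.1% of control, with a log2 difference of -1.41 (SE 0.25) on the log2(FPKM + 0.1) scale, where a gene this low has its change understated. Relative to the mean of Kasumi-1 controls, IGLL1 was at 3.19%, 4.46% and 3.92% in NB4 controls, against a Kasumi-1 signal of at most 1.10% there. It was at 0.452%, 0.936% and 0.479% with OGP46. After subtraction of that signal it was at 0.234, 0.316 and 0.212 FPKM in controls and 0.0306, 0.0668 and 0.0303 FPKM with OGP46. The groups still did not overlap, and the log2 difference was -1.31.

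SPINT2 was listed at 0 in all 3 NB4 samples with OGP46, against 0.0942, 0.337 and 1.09 FPKM in controls 1, 2 and 3. Relative to the mean of Kasumi-1 controls, these control values were 0.0966%, 0.346% and 1.11%. Read from the 16 marking genes other than SPINT2 and C1QTNF4, the Kasumi-1 signal of the same libraries was 0.0680%, 0.261% and 1.16%. The SPINT2 values and the signal lay close together in each of the 3 controls. After subtraction of the signal read from these 16 genes, SPINT2 was at 0.0279 and 0.0826 FPKM in controls 1 and 2 and at 0 in control 3.

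C1QTNF4 stood at 0.0554, 0.0586 and 0.182 FPKM in NB4 with OGP46, against 0.287, 0.180 and 1.24 FPKM in controls 1, 2 and 3. The groups overlapped, since OGP46 sample 3 lay just above control 2. The mean with OGP46 was 0.0985 ± 0.0719 FPKM (SD, n = 3), or 17.3% of control, with a log2 difference of -1.46 (SE 0.56). Without control 3, the library with the strongest Kasumi-1 signal, that difference was -0.79. Relative to Kasumi-1 controls, C1QTNF4 was at 0.180%, 0.113% and 0.778% in NB4 controls. After the same subtraction it was at 0 in controls 2 and 3 and at 0.178 FPKM in control 1, and at 0 in OGP46 samples 1 and 2 and 0.0589 FPKM in sample 3.

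**Figure D3:**
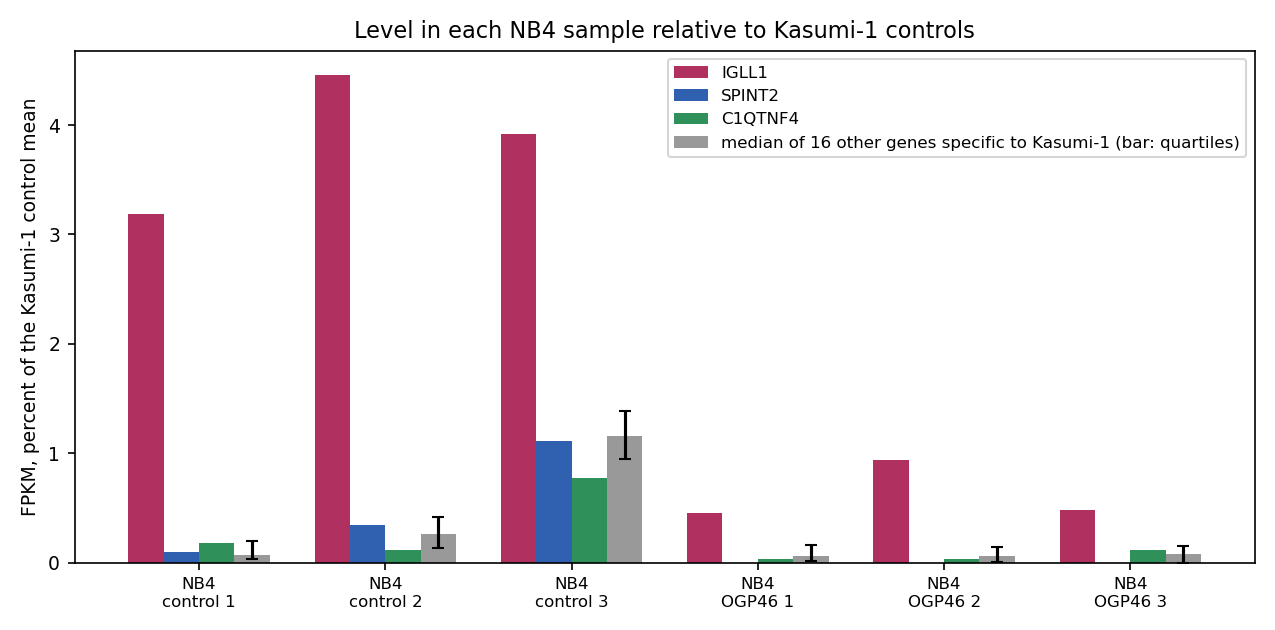
The y axis shows FPKM in each of the 6 NB4 samples as a percent of the mean of the Kasumi-1 controls, for IGLL1, SPINT2, C1QTNF4 and, in grey, the median of 16 other genes that mark Kasumi-1, with quartiles as error bars. IGLL1 stands above the grey bars in every sample, whereas SPINT2 and C1QTNF4 lie within the quartiles or below them, and in NB4 control 3 they reach 1.11% and 0.778% against 1.16%.

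All 3 OGP46 samples lay below all 3 controls for 224 of 11750 genes in NB4 (1.91%) and 619 of 11835 in Kasumi-1 (5.23%). This held in both lines for 24 of the 10904 genes tested in both (0.22%). IGLL1 was among the 24 and had the most negative log2 difference of them in each line. It was chosen for being lower in both lines, so this place is a description and no test. In NB4 it also rests on values of at most 0.335 FPKM, where a pseudocount of 1 gave -0.30 in place of -1.41. SPINT2 was not among them because its Kasumi-1 groups overlapped, and C1QTNF4 was not because its NB4 groups did. PLPPR3, a membrane protein gene of the granulocyte-monocyte progenitor list, was also among the 24, with log2 differences of -0.70 in NB4 and -0.41 in Kasumi-1. PLPPR3 is named here after its values were seen.

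Over the 12 samples of both lines, the profiles of SPINT2 and C1QTNF4 resembled each other more than either resembled IGLL1. This likeness mainly follows the line difference, which was 4.27 for IGLL1, 7.71 for SPINT2 and 8.21 for C1QTNF4 in the controls. It does not describe the OGP46 differences in Kasumi-1, where C1QTNF4 (-0.72) lay nearer to IGLL1 (-1.07) than to SPINT2 (-0.06). Likeness was measured as the root mean square difference of log2(FPKM + 0.1), centred per gene, over the 12 samples, among the 9943 genes that averaged 1 FPKM or more. The nearest profiles to SPINT2 were those of APP, an amyloid precursor protein with a Kunitz domain in some isoforms (0.284), CD34, a surface marker of stem and progenitor cells (0.388), and EGFL7, a secreted vascular factor (0.506). C1QTNF4 was nearest to PODXL2, a sialomucin (0.464), CD34 (0.481) and SPINT2 (0.558). APP, CD34, EGFL7 and PODXL2 are all among the 18 genes that mark Kasumi-1. IGLL1 was nearest to SPATC1L (0.497), C11orf96 (0.506) and AZU1, a protein of primary neutrophil granules (0.510), and was at 2.29 from SPINT2 and 2.15 from C1QTNF4.

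The tested genes beside SPINT2 and C1QTNF4 were not called with OGP46, and no gene beside IGLL1 could be tested. Within 50 kb, 14 annotated genes had FPKM values, and 0 of those tested were called with OGP46 in either line, with or without the block. Among all genes, at most 1.45% were called in either direction without the block and at most 5.06% with it. A count of 0 among so few genes cannot be set apart from those shares. Beside SPINT2, 4 neighbours were called higher in Kasumi-1 controls than in NB4 controls, as were 29.7% of all genes. The overlapping PPP1R14A, an inhibitor of myosin phosphatase, was listed at 0 in NB4 and averaged 5.34 ± 0.476 FPKM in Kasumi-1 controls (SD, n = 3, limma adjusted p = 4.5e-08). KCNK6, a potassium channel gene, averaged 0.0657 and 4.22 FPKM (log2 difference 4.71, limma adjusted p = 5.4e-08), and DPF1 and YIF1B had log2 differences of 1.65 and 0.61. SIPA1L3, also near SPINT2, was not called, and C19orf33 and CATSPERG were too low to be tested. Around C1QTNF4, FAM180B, NDUFS3, KBTBD4, PTPMT1, MTCH2 and CELF1 were each not called. FAM180B, only 470 bases away, averaged 1.65 and 1.81 FPKM in NB4 and Kasumi-1 controls. DRICH1, the one measured neighbour of IGLL1, was below 0.1 FPKM in every group mean and was not tested.

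The partners of IGLL1 were mostly not measured at a usable level. VPREB1, the other part of the surrogate light chain, was listed at 0 in all 12 samples, and VPREB3 averaged at most 0.161 FPKM in any group. IGLL5, which shares sequence with IGLL1, stood at 0.618, 0 and 0.167 FPKM in NB4 controls and 1.36, 0 and 0.475 FPKM with OGP46, so in NB4 it was higher in pairs 1 and 3 while IGLL1 was lower. In this comparison IGLL5 was not called (log2 difference 0.71, SE 0.99, limma adjusted p = 0.64, and 0.077 with the block). IGLL5 was listed at 0 in 5 of the 6 Kasumi-1 samples. Of the 18 listed genes of the pre-B cell receptor and early B-lymphoid cells, 8 were tested for OGP46 in each line and 0 were called. Without the block, 1.45% of all genes were called higher and 0.111% lower in NB4, and 0.0169% in each direction in Kasumi-1. A count of 0 of 8 is therefore close to the share of all genes. The median log2 difference of the 8 was 0.20 in NB4, where it was 0.18 over all genes, and -0.01 in Kasumi-1, where it was 0.05 over all genes. Between control lines, PAX5, a B-lineage transcription factor, averaged 0.0302 FPKM in NB4 and 1.16 FPKM in Kasumi-1 (log2 difference 3.27, limma adjusted p = 4.2e-07). TCF3, an E-box binding factor, was also higher in Kasumi-1, by 0.99, and SYK, a receptor-associated kinase, was lower by a log2 difference of -3.95. These 3 are named as the genes of the list called between the control lines without the block. With the block IGLL5 was also called, lower in Kasumi-1 (log2 difference -1.42, limma adjusted p = 0.038, against 0.054 without it).

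Most genes of the proteases and growth factor system that SPINT2 restrains were too low to be tested with OGP46. Of 14 listed genes, 4 were tested in each line and 0 were called. ST14 was the only protease tested. Among all genes at most 1.45% were called in either direction in NB4, and 0.0169% in Kasumi-1, without the block. So few tested genes cannot be set apart from that share. HGF averaged 8.84 and 9.59 FPKM in NB4 control and OGP46, and 13.5 and 15.7 FPKM in Kasumi-1. MET, its receptor, was listed at 0 in all 12 samples. ST14, which encodes matriptase, averaged 0.137 and 0.125 FPKM in NB4 and 2.86 and 2.69 FPKM in Kasumi-1, and was higher in Kasumi-1 controls (log2 difference 3.62, limma adjusted p = 1.2e-06). The median log2 difference of the 4 tested genes was -0.01 in NB4 and -0.03 in Kasumi-1.

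SPINT1, the closest relative of SPINT2, had the opposite line pattern. It stood at 6.03, 4.04 and 5.90 FPKM in NB4 controls and 9.84, 6.48 and 9.93 FPKM in NB4 with OGP46, and at 0.375 to 0.535 FPKM in the 6 Kasumi-1 samples. Each NB4 sample with OGP46 lay above all 3 controls, but the share of all genes that did so was not counted. In NB4 the median log2 difference over all genes was 0.18, and 5.06% of all genes were called higher with the block. The log2 difference of SPINT1 in NB4 was 0.70 (SE 0.21), with a limma adjusted p of 0.086, or 5.7e-04 with the replicate block. Of 5 Kunitz-domain genes tested in each line, 0 were called without the block in either line, where at most 1.45% of all genes were in either direction. With the block APP, itself among the genes from which the Kasumi-1 signal was read, was the other gene called, in NB4. Its level followed that signal (0.0639, 0.346 and 1.52 FPKM in controls 1, 2 and 3). Its log2 difference of -1.57 was -0.71 without control 3 and -2.37 without control 1.

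Among 31 relatives of C1QTNF4 with a C1q-like domain, most were not measured at a usable level. C1QTNF1 was listed at 0 in all 12 samples. C1QTNF6 averaged 0.0604 and 0.0907 FPKM in NB4 control and OGP46, and 0.261 and 0.340 FPKM in Kasumi-1. Of 6 tested in NB4, CAPRIN2, an RNA-binding protein, was called higher with OGP46 (log2 difference 0.83, SE 0.16, limma adjusted p = 0.043), a call that was lost when any 1 NB4 sample was left out, and MMRN2, an extracellular matrix protein, was called with the block only (log2 difference 0.90, limma adjusted p = 0.12 without and 0.0033 with it). Of 7 tested in Kasumi-1, 0 were called, where 0.0169% of all genes were in each direction without the block. The medians were 0.59 in NB4 and 0.34 in Kasumi-1, above those of all genes.

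Stem and progenitor genes were not called with OGP46 without the block, and few of all genes were. Of the 26 listed stem and progenitor genes, 14 were tested in NB4 and 21 in Kasumi-1, and 0 were called in either line, with median log2 differences of 0.02 and -0.01. Over all genes, 1.45% were called higher and 0.111% lower in NB4, and 0.0169% in each direction in Kasumi-1. A count of 0 in a list this short does not set it apart from other genes. CD34 averaged 97.4 FPKM in Kasumi-1 controls and 100.1 FPKM with OGP46. In NB4 CD34 was called lower with the block (log2 difference -1.42, limma adjusted p = 0.036, against 0.22 without it). It stood at 0.0601, 0.154 and 1.31 FPKM in controls 1, 2 and 3, the order of the Kasumi-1 signal. CD34 is itself among the genes from which that signal was read. Of the 17 genes of the LSC17 leukemia stem cell score, 9 were tested in NB4 and 11 in Kasumi-1, and 0 were called without the block. With it, 1 was called higher in NB4, where 5.06% of all genes were, and 1 lower, CD34, which is on both lists. The higher gene was EMP1, a membrane protein (log2 difference 1.47, limma adjusted p = 2.2e-05, against 0.23 without the block). Without the block its difference was 0.83 without OGP46 sample 1, 0.86 without control 2 and 2.23 without OGP46 sample 2. In Kasumi-1, SMIM24, a small membrane protein, was called lower with the block (log2 difference -0.65, limma adjusted p = 0.0038, against 0.073).

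The granulocyte-monocyte progenitor list had a median below that of all genes in both lines. It was chosen with earlier results of these data known, so its counts beside the shares of all genes are a description. In NB4 the list median was -0.23, 0 of 16 were called without the block and 6 were called lower with it, where 1.15% of all genes were. The 4 with the largest differences were ELANE (-2.17), CTSG (-1.45), PRTN3 (-1.36), each a serine protease of primary granules, and MS4A3 (-0.84), a cell cycle regulator of these cells. Their limma adjusted p-values were 0.0023, 1.2e-05, 1.4e-05 and 6.1e-04 with the block and 0.19, 0.23, 0.15 and 0.13 without it. Single NB4 libraries moved these differences by over 1.5 times in the fit without the block. ELANE was at -1.05 without control 3 and -3.35 without control 1. CTSG was at -0.82 without control 2, -0.87 without OGP46 sample 1 and -2.26 without OGP46 sample 2. Without OGP46 sample 1, PRTN3 was at -0.78 and MS4A3 at -0.53. ELANE is among the genes that mark Kasumi-1 and stood at 0.504, 3.30 and 14.5 FPKM in NB4 controls 1, 2 and 3. With the block and after subtraction of the Kasumi-1 signal, 4 genes over all the lists, CTSG, PRTN3, MS4A3 and PLPPR3, were called lower. In Kasumi-1 the list median was -0.24, with MS4A3 alone called, with the block (log2 difference -1.04, limma adjusted p = 0.0021, against 0.073 without it), where 0.346% of all genes were called lower.

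Monocyte and granulocyte maturation genes were higher with OGP46 in NB4. This list too was chosen with earlier results of these data known, and the study had reported CD14 as up-regulated in NB4. Its counts beside the shares of all genes are therefore a description and no independent test. Of 17 tested, 7 were called higher with OGP46, against 1.45% of all genes, and 14 with the block, against 5.06%. Among the genes with the largest differences were CD14, a lipopolysaccharide co-receptor (log2 difference 1.67, limma adjusted p = 0.069, and 4.9e-04 with the block), CD86, a costimulatory molecule (log2 difference 1.44, limma adjusted p = 0.17, and 1.3e-04 with the block) and FCN1, a monocyte lectin (log2 difference 1.33, limma adjusted p = 0.028). In Kasumi-1, 0 of 11 were called, and NCF1, a subunit of the phagocyte oxidase, was called with the block (log2 difference 0.79, limma adjusted p = 0.032, against 0.15 without it), where 0.27% of all genes were called higher. The list median was 0.83 in NB4 and 0.31 in Kasumi-1. The calls made in NB4 without the block were lost with TPM scaling, median centring or no filter on low values, and when any 1 NB4 sample other than OGP46 sample 2 was left out, and that of CD68, a lysosomal membrane protein of monocytes, also without OGP46 sample 2. CD86 was at 0.74 without control 2, and NCF1 in Kasumi-1 at 0.52 without control 1.

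Over the 8 lists together, 78 genes were tested in NB4, with 8 called higher and 0 lower by limma, and 15 and 3 at an unadjusted p under 0.05. With the block the counts were 18 and 8. In Kasumi-1, 81 were tested with 0 called in either direction, 1 higher and 2 lower at an unadjusted p under 0.05, and 1 and 2 with the block. Over all genes, 1.45% were called higher and 0.111% lower in NB4 without the block, and 0.0169% in each direction in Kasumi-1. With the block, the shares called higher and lower were 5.06% and 1.15% in NB4, and 0.27% and 0.346% in Kasumi-1. The lists were chosen with earlier results of these data known, so their counts are a description. The difference between the lines in the OGP46 effect was tested by an interaction term, at an adjusted p under 0.05 by limma. It called 0 of 89 list genes and 0.0% of all 12309 genes without the block, and 11 list genes and 1348 of all genes had an unadjusted p under 0.05. With the block it called 7 list genes and 1.93% of all genes.

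**Figure D4:**
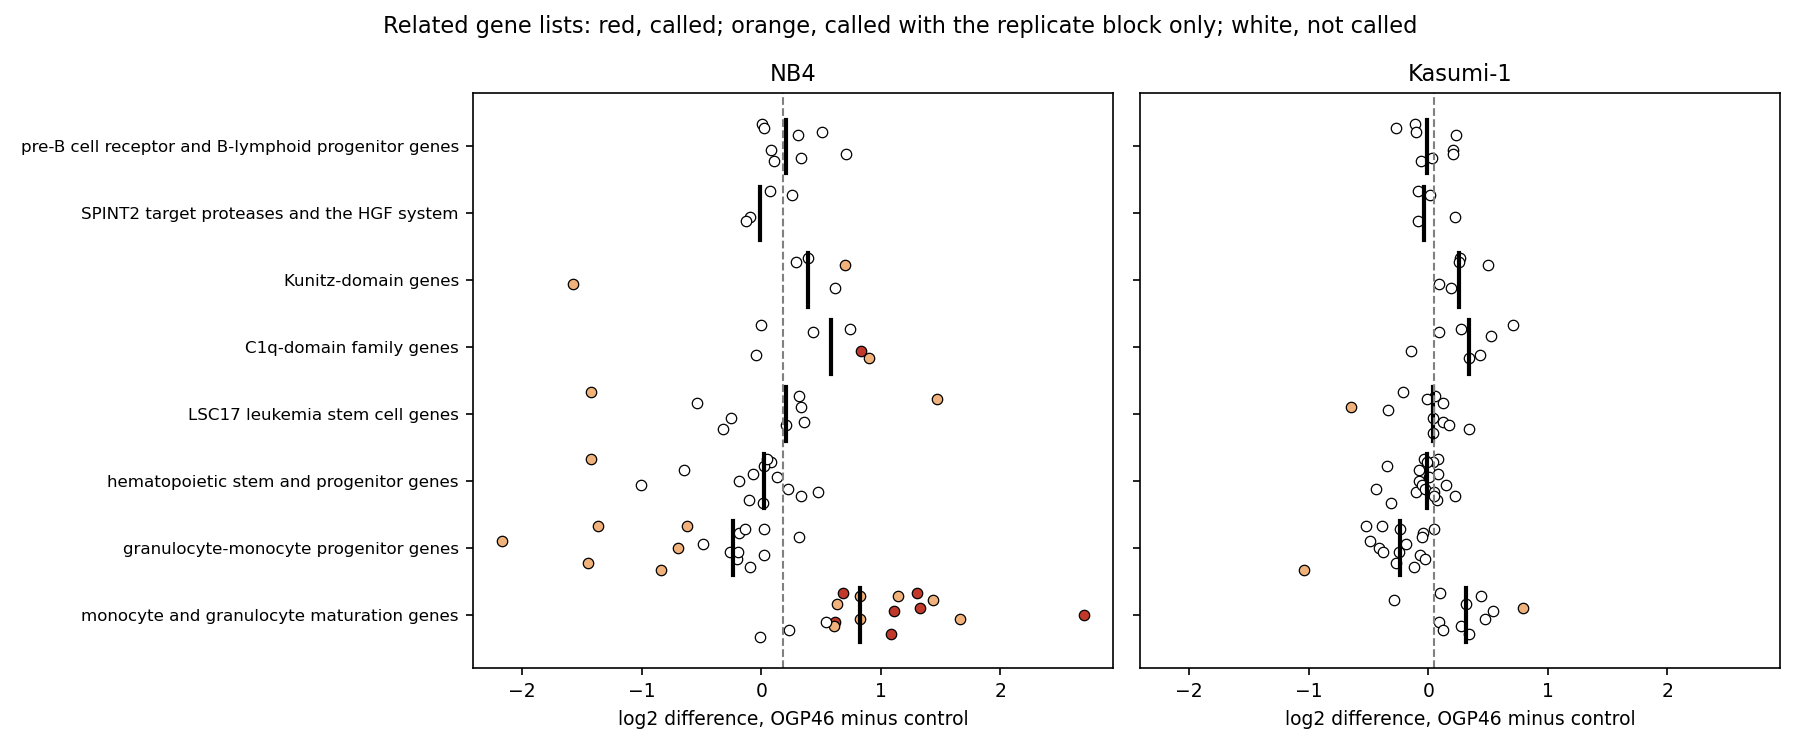
The x axis shows the log2 difference of OGP46 minus control for each tested gene of the 8 lists in NB4 and Kasumi-1, with red for genes called without the block, orange for genes called with it only, a black bar for the list median and a dashed line for the median of all genes (0.18 and 0.05). The maturation list lies to the right in NB4 with a median of 0.83, and the median of the granulocyte-monocyte progenitor list lies left of the dashed line in both lines.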

How the data were processed

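For every sample the authors deposited 1 table of FPKM by gene symbol. FPKM divides fragments by exon length and by mapped fragments, so levels can be compared between genes, but it keeps no read count and gives no interval or detection limit. The submitters' processing notes name Trimmomatic, HISAT2, Cufflinks, HTSeq and hg38, with no versions or roles, and the annotation is not given in the sources used here. Libraries were poly(A)-selected and strand-specific. In each sample 27 symbols turned into dates were left out, which left 20003 genes.

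Values were compared as log2(FPKM + 0.1) by limma 3.58.1 in R 4.3.3 (empirical Bayes with trend, two-sided, Benjamini-Hochberg over all genes tested), for genes averaging 0.1 FPKM or more in the 6 samples compared, after tests on simulated data. Each comparison used only its own 6 samples. The thresholds (adjusted p under 0.05, log2 difference of at least 0.58, 1.49-fold) follow the study's methods. The members and gene lists were chosen with earlier results of these data known. Named genes are the members, fixed partners, neighbours within 50 kb, the 3 most similar profiles per member, the line markers and, per list, genes called with or without the block (the 4 largest where there were more). The values of 2 listed genes are not reported here. Within a line, control and OGP46 samples with the same number departed from their group means together: the correlations of these departures, across genes of at least 5 FPKM, were 0.662, 0.850 and 0.439 in NB4 and 0.416, 0.433 and 0.621 in Kasumi-1. The main fits used no block. The numbers were treated as pairs in an alternative fit with the number as a block, and the blocked value is given where it changes a call. Subtraction removed from each sample the estimated share of the other line's control mean. Sequences and annotation came from GENCODE 29 and RefSeq.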

Additional observations from a re-analysis of the deposited data

How the results depend on the processing

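The line differences of IGLL1, SPINT2 and C1QTNF4 in the controls kept their call and direction under each alternative that gave a value. So did those of IGLL1 and C1QTNF4 in the OGP46 samples, the replicate block and the leave-one-out fits included. Both subtractions are among the alternatives, but they lower the NB4 values and could hardly remove these calls. The line difference of SPINT2 in the OGP46 samples was left out of this comparison, because SPINT2 was listed at 0 in all 3 NB4 samples there. Between control lines they ran from 2.70 to 4.64, 6.08 to 9.52 and 6.70 to 10.14 on the log2 scale. Across lines the same numbers did not deviate together (correlations of -0.049 to 0.114), so there the block pairs nothing. Leaving out 1 sample moved the controls' difference of IGLL1 between 4.09 and 4.42.

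For the low IGLL1 in NB4 (-1.41) the pseudocount set the size of the difference, which was -2.44 with 0.01 and -0.30 with 1, and -1.63 with median centring, without or with the replicate block. For C1QTNF4 in NB4 (-1.46) a pseudocount of 1 gave -0.46. Leaving out 1 sample gave -1.52 to -1.33 for IGLL1 and -1.92 to -0.79 for C1QTNF4 in NB4, and -1.32 to -0.74, -0.95 to -0.54 and -0.13 to 0.00 for IGLL1, C1QTNF4 and SPINT2 in Kasumi-1. No value could be had in NB4 at a minimum of 1 FPKM, or for C1QTNF4 after subtraction, because the genes fell below the minimum.

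The 8 list genes called higher in NB4 became 0 with TPM scaling, median centring or no filter, 13 in a joint fit of all 12 samples, 18 with the replicate block and 19 with block and subtraction. Leaving out 1 sample gave 0 to 11, and 0 for each sample except OGP46 replicate 2. The 0 called lower in NB4 became 1 in the joint fit, 8 with the block, 7 with block and TPM scaling or median centring, and 4 with block and subtraction, and 0 to 4 when 1 sample was left out. In Kasumi-1 the 0 higher became 1 with the block, alone or with TPM scaling, median centring or subtraction. The 0 lower became 1 with TPM scaling, 2 at a minimum of 1 FPKM, 2 with the block, alone or with TPM scaling or subtraction, and 3 with block and median centring. The cause of these shifts was not tested. The block combinations and the subtraction without the members were added after seeing the data.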

Other observations

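TRH, a Kasumi-1 marker that encodes a hormone precursor, was also lower with OGP46 in that line, with a mean of 36.9 FPKM in controls and 20.7 FPKM with OGP46 (log2 difference -0.84, limma adjusted p = 0.010). RUNX1T1, part of the fusion transcript, averaged 8.52 FPKM in Kasumi-1 controls and 8.68 FPKM with OGP46. CD3D in NB4 averaged 16.7 FPKM in controls and 27.7 FPKM with OGP46 (log2 difference 0.72, limma adjusted p = 0.072, and 2.2e-04 with the replicate block), while CD3E averaged 0.0203 and 0.0209 FPKM.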
